A study of Homo sapiens with 7 samples.

Results

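The genes described here carry the Gq signal of the heart muscle cell from its receptors to the calcium store. They are 10 of the 60234 genes in the deposited expression table: the receptors EDNRA, AGTR1 and ADRA1A, the G protein alpha subunits GNAQ and GNA11, the phospholipases C PLCB1, PLCB3, PLCB4 and PLCE1, and the calcium release channel ITPR2. They were taken by gene name, and PLCB1 was selected on its lower level, in these same libraries, after an antisense oligonucleotide (ASO) against MYH7B. The PLCB1 values are therefore given as a description with no test. ASOs are short synthetic strands that bind a chosen transcript and can lead to its loss. The study asked, per its title, about a regulatory role of the MYH7B transcript as a long noncoding RNA in the human heart.

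All libraries came from cardiomyocytes grown from WTC-11, an established human induced pluripotent stem cell line, by a small-molecule protocol. The cells were matured for 35 days and then exposed to an ASO at 2 uM for 96 h without a transfection step, per the labels. The 3 controls received a scrambled ASO and the 4 others an ASO against MYH7B. Poly-A RNA was sequenced. The values are TPM, a level per transcript length relative to the whole library, so levels may be set side by side between genes. The groups compared are scrambled ASO replicates 1 to 3 and MYH7B ASO replicates 2 to 4. The deposited column of MYH7B ASO replicate 1 is out of step with the gene names, and its reordered values are given separately. No untreated cells are among the libraries, a single ASO against MYH7B was used on a single line, and no label says that the libraries came from separate differentiations, so the p-values measure only the spread between these libraries.

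In the heart, endothelin, angiotensin II and noradrenaline act through receptors that couple to Gq and its close relative G11. The activated alpha subunit switches on phospholipase C beta, which cuts a membrane lipid into IP3, an opener of calcium channels on internal stores, and diacylglycerol, an activator of protein kinases C and D. Calcium and these kinases feed calmodulin kinase II, calcineurin with NFAT, and MEF2, and long-lasting activity of this route is a classic driver of cardiac hypertrophy.

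The targeted transcript was checked first. MYH7B stood at 23.0, 36.5 and 25.1 TPM with scrambled ASO and at 9.30, 5.65 and 6.31 TPM with MYH7B ASO, and at 1.29 TPM in the reordered replicate 1. It fell by 1.85 on the log2(TPM + 1) scale (limma adjusted p = 0.0109, and 0.0525 over 7 libraries). All 10 cardiomyocyte markers on the list reached 1 TPM, with a summed level of 9589 to 10760 TPM against 8700 to 10710 TPM. None was called by limma, and 7 of the 10 were below 0. Groups that did not overlap were lower for 5 (TNNI3, MYL7, ACTN2, RYR2 and PLN), against 14.1% of all tested genes. They were higher for 1, TNNI1 (1198 to 1662 TPM), against 7.11%. RYR2 had the lowest log2 fold change of the 10 (34.1 to 16.3 TPM, limma adjusted p = 0.0536). The 10 fibroblast markers summed to 2933 to 5254 TPM in the scrambled libraries and 1389 to 2132 TPM in the MYH7B ASO libraries, and the 10 smooth muscle and pericyte markers to 1052 to 1462 TPM and 638.6 to 833 TPM. Replicate 1, at 4155 and 1294 TPM, lay inside the scrambled range of both lists. 2 fibroblast markers, 1 smooth muscle marker and 1 neural marker (STMN2) were called lower, against 1.48% of all tested genes. The neural list went both ways, with 2 of 4 tested markers below 0. GAP43 went from 4.99 to 8.86 TPM (log2 fold change 0.74, limma adjusted p = 0.237), and TUBB3 was at 0.45. 8 of 10 fibroblast and 8 of 10 smooth muscle markers were below 0. Groups did not overlap for 6 fibroblast markers that were lower and 2 that were higher. The 2 were PDGFRA (23.7 to 36.3 TPM, replicate 1 at 26.5 TPM) and TCF21 (8.40 to 14.4 TPM, replicate 1 at 17.5 TPM). Among the smooth muscle markers 6 were lower and 0 higher in this way. 7 of 10 endothelial markers, among them PECAM1, CDH5 and VWF, had a mean below 1 TPM. In these bulk samples, fewer cells of a type and less RNA per cell cannot be told apart. The mitochondrial genome supplied 27.4% to 33.6% of the summed TPM of the 6 libraries, and 17.2% for replicate 1. Each column as deposited sums to 1000000 TPM (995518 TPM of replicate 1 could be placed in listed genes), so the depth of the libraries is unknown.

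EDNRA, the main endothelin receptor of muscle cells, was the most abundant member and showed little difference. It stood at 24.9, 31.5 and 30.4 TPM with scrambled ASO and at 29.4, 23.8 and 25.1 TPM with MYH7B ASO (28.9 ± 3.53 and 26.1 ± 2.97, SD, n = 3 each). The groups overlapped, and replicate 1 stood at 32.3 TPM, above all of them. The log2 fold change was −0.14 with a 95% interval of −0.51 to 0.23 (limma adjusted p = 0.719).

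AGTR1, the type 1 angiotensin II receptor, varied more between libraries of 1 group than any other tested member. Its level was 4.79, 0.989 and 8.59 TPM with scrambled ASO and 0.380, 2.16 and 1.56 TPM with MYH7B ASO. Replicate 1 stood at 7.60 TPM, inside the scrambled range, and the groups overlapped. The log2 fold change of −1.10 (95% interval −2.43 to 0.22, limma adjusted p = 0.419) ranged from −1.74 without scrambled replicate 2 to −0.60 without scrambled replicate 3. The summed fibroblast markers stood highest, at 5254 and 4155 TPM, in scrambled replicate 3 and MYH7B ASO replicate 1, the 2 libraries with the highest AGTR1. Their part in the AGTR1 level was not tested. ADRA1A, an alpha-1 adrenergic receptor, was barely detected: it was listed at 0, 0.196 and 1.03 TPM with scrambled ASO, at 0.0152, 0.0496 and 0.0700 TPM with MYH7B ASO, and at 0 in replicate 1. It missed the mean of 1 TPM required for a test.

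GNAQ and GNA11 encode the alpha subunits that couple these receptors to phospholipase C beta. GNAQ spans 315.4 kb on the minus strand (chr9:77716087-78031458, GENCODE 29 on GRCh38) and GNA11 29.59 kb (chr19:3094410-3124004). Their coding sequences are both 1077 bases long and 78.6% identical, and the longest identical run is 26 bases. It is printed because reads falling within such stretches could be assigned to either gene, and how the authors' counting split them is not given in the sources used here:

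GNAQ and GNA11 shared coding run: ctgaagatgttcgtggacctgaaccc

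GNAQ read 7.51, 9.90 and 8.996 TPM with scrambled ASO and 6.37, 6.42 and 6.15 TPM with MYH7B ASO (8.80 ± 1.21 and 6.31 ± 0.144, SD, n = 3 each). The groups did not overlap, but replicate 1, at 8.40 TPM, lay inside the scrambled range. The log2 fold change was −0.41 with a 95% interval of −0.82 to −0.011, an unadjusted p of 0.0451 and an adjusted p of 0.314 by limma. GNA11 stood at 17.5, 13.2 and 15.9 TPM and at 16.9, 15.1 and 11.95 TPM. Its groups overlapped, replicate 1 was higher at 24.7 TPM, and the log2 fold change was −0.08 (95% interval −0.51 to 0.35, adjusted p = 0.876).

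GNA11 was the larger of the pair in each of the 7 libraries. It made up 70.0%, 57.1% and 63.8% of the summed GNAQ and GNA11 level with scrambled ASO and 72.6%, 70.1% and 66.0% with MYH7B ASO, and 74.7% in replicate 1. The mean share differed by 5.96 percentage points, within the overlap of the groups, and by 2.71 without scrambled replicate 2 and 9.13 without scrambled replicate 1 (2-sided exact permutation test over 20 splits, p = 0.2, where the smallest possible is 0.1). The summed level was 24.3 ± 1.06 TPM and 21.0 ± 2.62 TPM (SD, n = 3 each, p = 0.2 by the same exact test).

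PLCB1, the Gq-activated phospholipase C that gives this gene group its name, spans 891.1 kb (ENSG00000182621.18, chr20:8077251-8968360). Its level was 17.7, 13.7 and 10.8 TPM with scrambled ASO and 1.76, 2.03 and 1.97 TPM with MYH7B ASO. Every MYH7B ASO library lay far below the lowest scrambled library, and replicate 1 was lower still at 1.49 TPM. The means were 14.1 ± 3.44 and 1.92 ± 0.145 TPM (SD, n = 3 each), a 7.32-fold difference that left 13.7% of the scrambled level. On the log2(TPM + 1) scale the difference was −2.34 with a standard error of 0.22, and in the authors' deposited table, with its shrunken fold changes, −2.15 at a mean normalized count of 541. The choice of gene used this contrast, and no test is attached to it. The plot of the members by library sets PLCB1 beside the others.

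**Figure D1:**
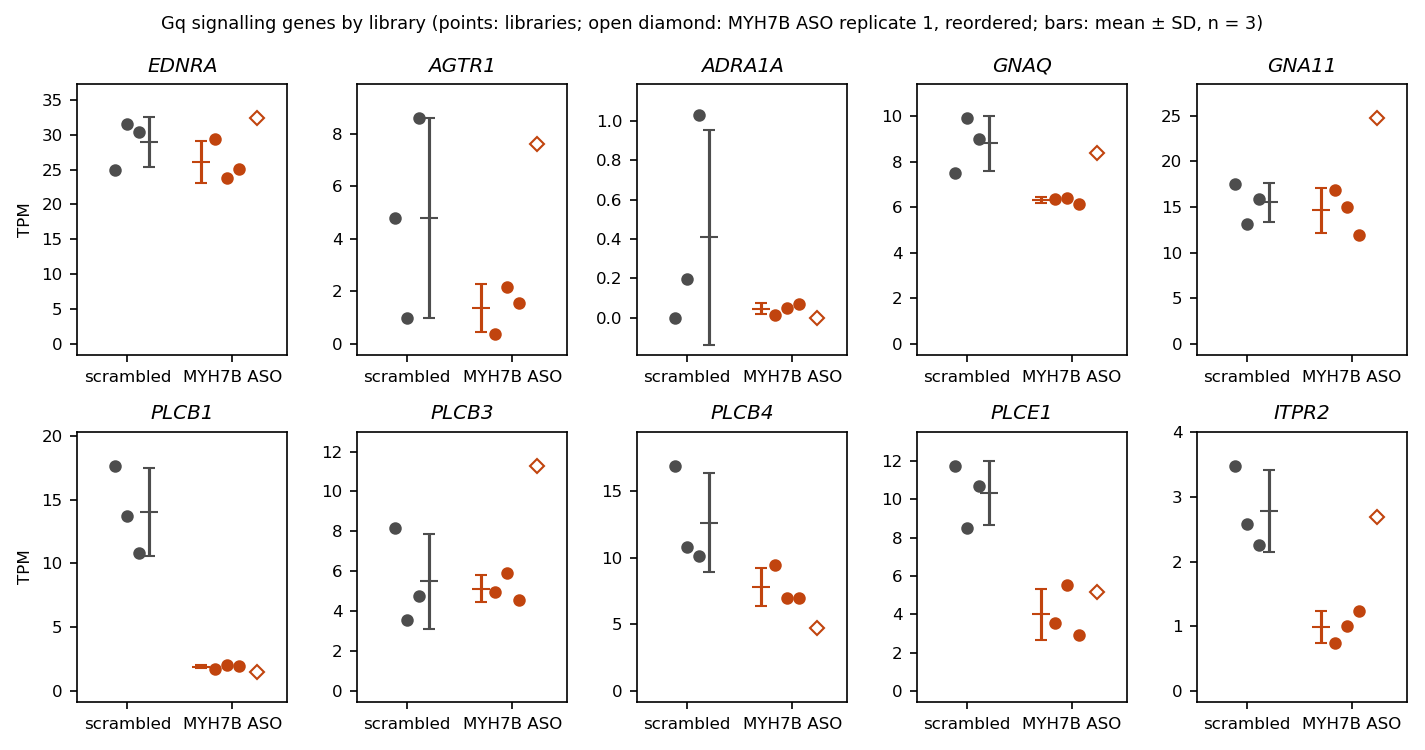
Level of each of the 10 members in every library (TPM, linear axes that differ between panels). Grey points are the 3 scrambled ASO libraries, orange points MYH7B ASO replicates 2 to 4, the open diamond is the reordered replicate 1, and bars give the mean ± SD of 3 libraries. PLCB1 stands at 10.8 to 17.7 TPM against 1.76 to 2.03 TPM, while the groups of EDNRA, GNA11, PLCB3, AGTR1 and ADRA1A overlap.

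PLCB4 lies 100.4 kb beyond PLCB1 on the same strand of chromosome 20 (412.5 kb, chr20:9068763-9481242). It stood at 16.9, 10.8 and 10.1 TPM with scrambled ASO and at 9.41, 6.98 and 6.95 TPM with MYH7B ASO. The groups did not overlap, by a margin of under 1 TPM, and replicate 1 was lowest at 4.74 TPM. The log2 fold change was −0.61 (95% interval −1.14 to −0.083, limma unadjusted p = 0.0282, adjusted p = 0.259). PLCB3, another phospholipase C beta found in heart muscle, is short (17.63 kb, chr11:64251523-64269150) and stood at 8.17, 3.55 and 4.78 TPM against 4.95, 5.90 and 4.56 TPM. Its groups overlapped (log2 fold change −0.03, 95% interval −0.66 to 0.61, adjusted p = 0.976), and replicate 1 was the highest library at 11.3 TPM. PLCB2, no member but the fourth gene of the family and best known from blood cells, was at 9.65, 8.9995 and 10.003 TPM against 23.7, 11.3 and 12.3 TPM, with 12.8 TPM in replicate 1. It was higher in each MYH7B ASO library without a call by limma (log2 fold change 0.59, adjusted p = 0.341), while the authors' deposited table gives 0.61 with an adjusted p of 0.0363.

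The make-up of the phospholipase C beta family is described here with PLCB1, the gene selected on its difference, included. PLCB1 held 33.7%, 37.0% and 30.2% of the summed PLCB1 to PLCB4 level with scrambled ASO and 4.41%, 7.77% and 7.65% with MYH7B ASO, with 4.92% in replicate 1. The mean share went from 33.7% ± 3.38 to 6.61% ± 1.91 (SD, n = 3 each), a description that rests on PLCB1 itself. The summed level of PLCB1, PLCB3 and PLCB4 was 42.7, 28.1 and 25.7 TPM against 16.1, 14.9 and 13.5 TPM, and 17.5 TPM in replicate 1. This sum contains PLCB1 and is likewise a description. With PLCB2 included the sums overlapped, at 52.4, 37.1 and 35.7 TPM against 39.9, 26.2 and 25.8 TPM. By percent identity the family is less alike than the G alpha pair. The PLCB1 coding sequence is 62.0% identical to that of PLCB4, 63.6% to PLCB3 and 62.4% to PLCB2. Identical runs reach at most 23 bases, against 26 in the G alpha pair.

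**Figure D2:**
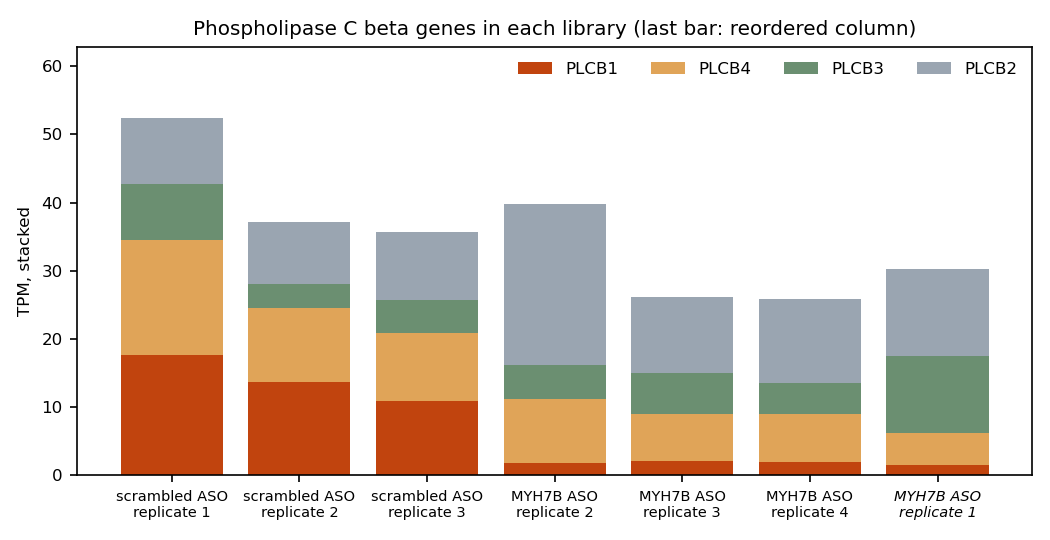
Stacked TPM of PLCB1, PLCB4, PLCB3 and PLCB2 in each of the 7 libraries, with the reordered replicate 1 as the last bar. The PLCB1 segment takes 30.2% to 37.0% of the bar in the scrambled libraries and 4.41% to 7.77% in the MYH7B ASO libraries, where PLCB2 is the largest segment.

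PLCE1 encodes phospholipase C epsilon, which responds to small G proteins such as Ras as well as to receptors. It spans 302.0 kb (chr10:94030812-94332823). Its levels were 11.8, 8.49 and 10.7 TPM with scrambled ASO and 3.56, 5.51 and 2.94 TPM with MYH7B ASO. Replicate 1, at 5.15 TPM, lay with the other MYH7B ASO libraries, and no library of one group reached the other. The means were 10.3 ± 1.67 and 4.004 ± 1.34 TPM (SD, n = 3 each), a 2.58-fold difference. The log2 fold change of −1.20 (SE 0.24, 95% interval −1.75 to −0.65) had an unadjusted p of 9.2e-04 and an adjusted p of 0.0535 by limma, just over the threshold of 0.05. With a stricter minimum mean of 5 TPM, which tests fewer genes, the adjusted p was 0.0442. The authors' deposited table gives −1.07 with an adjusted p of 3.1e-06.

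PLCE1-AS1, an antisense gene inside PLCE1 (chr10:94279277-94287478), had levels of 6.73, 5.73 and 9.002 TPM against 2.27, 3.79 and 2.49 TPM (log2 fold change −1.08, limma adjusted p = 0.0822) and 7.92 TPM in replicate 1. Whether counting used strand is not given in the sources used here, so reads of the 2 genes may not be separable. Among the members, 4 (EDNRA, GNA11, PLCB3 and PLCE1) have a start window in the RefSeq promoter table. Those of PLCE1, a member whose groups did not overlap, and GNA11, a member whose groups did, are shown as the 250 bases before the start on the plus strand (GRCh38.p14), because their base composition lies at opposite ends of the 4. Capitals mark CATTCC, the core of the TEAD motif, and GGGCGG, the core of the SP motif, on either strand, where SP matches may overlap by 1 base; AGATAA, the GATA motif, was also searched:

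PLCE1, chr10:94088776-94089025: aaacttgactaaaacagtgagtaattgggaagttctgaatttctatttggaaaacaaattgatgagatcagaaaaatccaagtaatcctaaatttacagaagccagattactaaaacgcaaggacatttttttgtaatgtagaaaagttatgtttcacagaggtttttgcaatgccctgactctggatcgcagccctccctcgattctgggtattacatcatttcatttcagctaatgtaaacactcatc

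GNA11, chr19:3094112-3094361: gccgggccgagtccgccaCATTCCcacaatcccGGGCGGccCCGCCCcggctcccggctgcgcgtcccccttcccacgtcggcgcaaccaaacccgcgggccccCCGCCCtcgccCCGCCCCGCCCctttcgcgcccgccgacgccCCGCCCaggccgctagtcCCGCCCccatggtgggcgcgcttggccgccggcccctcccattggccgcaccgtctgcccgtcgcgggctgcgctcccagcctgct

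The PLCE1 window is 35.2% G and C, holds none of the 3 motifs and lies inside the GENCODE 29 gene, without an annotated exon. The GNA11 window is 80.4% G and C and holds 1 CATTCC and 7 GGGCGG matches. Of 35116 windows of this length, 11.9% hold CATTCC, 9.17% AGATAA and 42.6% GGGCGG, and the median G and C content is 58.0%. A match or its absence describes these letters alone.

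ITPR2 encodes an IP3 receptor, the calcium channel that the product of phospholipase C opens, and is regarded as the main form in heart muscle. It spans 496.7 kb on the minus strand (chr12:26336515-26833198). Its level was low, at 3.48, 2.59 and 2.26 TPM with scrambled ASO and 0.739, 1.01 and 1.23 TPM with MYH7B ASO. These groups did not overlap, but replicate 1, at 2.69 TPM, lay inside the scrambled range. The means of 2.78 ± 0.633 and 0.994 ± 0.247 TPM (SD, n = 3 each) differed 2.79-fold, with a log2 fold change of −0.92 (SE 0.30, 95% interval −1.61 to −0.22). The limma adjusted p was 0.203, and 0.414 over 7 libraries, where the log2 fold change was −0.69. The authors' deposited table gives −0.97 with an adjusted p of 0.00105. The related ITPR1 was at 8.03 and 4.61 TPM on average (log2 fold change −0.67, adjusted p = 0.228), and ITPR3 was below 1 TPM.

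In the scrambled cells the members ranked, by mean TPM, EDNRA, GNA11, PLCB1, PLCB4, PLCE1, GNAQ, PLCB3, AGTR1, ITPR2 and ADRA1A. Neighbours in this order overlapped between libraries, except EDNRA above GNA11 and ITPR2 above ADRA1A. Of the 9 members other than PLCB1, 8 could be tested, and each of the 8 had a log2 fold change below 0, with a median of −0.51 against −0.04 over all 15988 genes tested. PLCB3 turned to 0.028 after median-ratio rescaling, and with replicate 1 added PLCB3 was at 0.23 and GNA11 at 0.10. None was called by limma at an adjusted p under 0.05, where 1.48% of all tested genes were called lower (236 genes) and 0.181% higher (29 genes). Rescaling the libraries by median ratios gave 213 lower and 58 higher. At an unadjusted p under 0.05, 4 of the 8 were lower (PLCB4, PLCE1, GNAQ and ITPR2) against 10.6% of all genes, and 0 higher against 4.67%. The same 4 had lower groups that did not overlap, against 14.1% of all genes, and 0 had higher ones, against 7.11%. With replicate 1 added, limma again called 0 of the 8, where 0.967% of genes were called lower and 0.107% higher. The authors' deposited table calls 2 of the 8 lower, PLCE1 and ITPR2, where 5.69% of its genes are.

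The members whose groups did not overlap are the long ones. Besides PLCB1, which was selected on its difference, the tested members spanning 300 kb or more are ITPR2, PLCB4, GNAQ and PLCE1, the 4 whose groups did not overlap, and EDNRA, AGTR1, GNA11 and PLCB3 are shorter than 100 kb. Across protein-coding genes the same gradient was present: the median log2 fold change was 0.08 for 6047 genes under 30 kb, −0.09 for 4271 genes of 30 to 100 kb, −0.25 for 2100 genes of 100 to 300 kb and −0.59 for 534 genes of 300 kb or more. The share called lower went from 0.397% to 1.10%, 3.48% and 13.1% over the same classes. Among the 534 long genes, 48.1% were lower at an unadjusted p under 0.05, 52.8% had lower groups that did not overlap, and 37.8% of those in the authors' deposited table were called lower there. The 4 long members other than PLCB1 therefore stood in a class in which 89.0% of genes had a log2 fold change below 0.

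Within that class the members took different places. Counted from the lowest log2 fold change, PLCE1 ranked 87 of 534, ITPR2 145, PLCB4 256 and GNAQ 330, so PLCB4 lay near the middle of the long genes and GNAQ above it. PLCB1 ranked 8, a place that follows from the contrast it was selected on and from which nothing is read. The median of the long genes relative to the scrambled mean was −0.60, −0.51 and −0.65 in MYH7B ASO replicates 2, 3 and 4 and −0.64 in replicate 1, so the long-gene shift was present in each of the 4 libraries. Gene length was not separated from the treatment by any design here, and its part in the members' values was not tested.

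**Figure D3:**
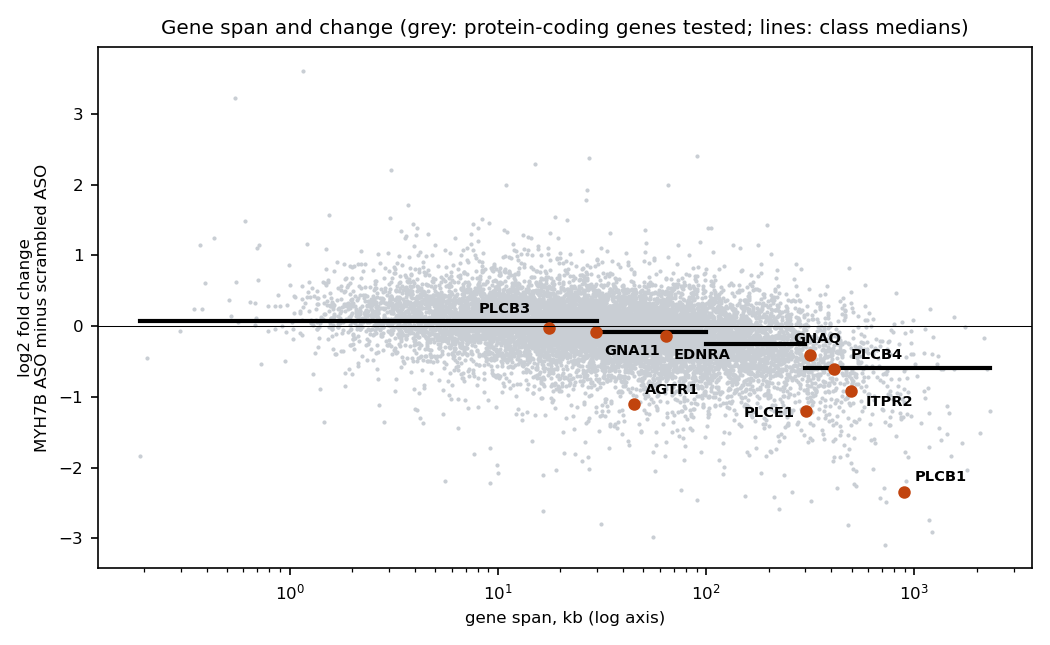
Annotated gene span in kb (log axis) against log2 fold change, MYH7B ASO minus scrambled ASO, for the protein-coding genes tested (grey) and the 9 tested members (orange), with black lines at the median of each span class. The class median goes from 0.08 below 30 kb to −0.59 at 300 kb or more, and PLCB4 lies on that line; PLCB1 was selected on this difference.

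None of the nearest 3 tested genes on each side of PLCB1, PLCB4 among them, was called by limma; at an unadjusted p under 0.05, PLCB4 was lower and BMP2 higher. PLCB1 lies 26 Mb from MYH7B on chromosome 20. TMX4, 57.42 kb before it, was at 34.4 ± 10.02 and 35.7 ± 6.81 TPM (SD, n = 3 each, limma adjusted p = 0.908). BMP2, a secreted growth factor 1297 kb before it, was higher in each MYH7B ASO library, at 48.1 ± 2.69 and 70.7 ± 5.34 TPM (log2 fold change 0.54, adjusted p = 0.0932). FERMT1, ANKEF1 and SNAP25 had log2 fold changes of −0.51, −0.11 and −0.12 and were not called.

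The genes whose pattern over the 6 libraries was most like PLCB1 are not on the pathway list. Likeness was the root mean square difference of gene-centred log2(TPM + 1) values. It was 0.172 for SEMA5A, a semaphorin guidance protein (20.6 to 3.61 TPM on average, 511.1 kb), 0.205 for BCAS3 (18.6 to 2.97 TPM, 715.4 kb) and 0.214 for RGS6, a regulator of G protein signalling (6.75 to 0.906 TPM, 634.1 kb). RNA5S1 (0.208) and AC008731.1 (0.224) were also close. RNA5S1 is a ribosomal 5S gene with near-identical copies, so its value is uncertain, and both were listed at 0 in replicate 1. Likeness to PLCB1 over these 6 libraries is largely likeness in the difference for which PLCB1 was picked.

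The wider pathway was described with a list of 148 genes in 11 roles. Without the 10 members, 118 of 138 could be tested, and 6 fell and none rose by limma (5.08% lower against 1.48% of all tested genes). Fits that left out 1 library called 0 to 4 of them, with 0 when MYH7B ASO replicate 4 was left out. Of the 118, 75 were below 0, with a median log2 fold change of −0.15 against −0.04 for all genes. The authors' deposited table calls 20 lower and 6 higher of 124, where 5.69% and 3.02% of its genes are. Split by span, 17 of the 118 were 300 kb or longer, none of them called, with a median of −0.44, and the 6 called genes were among the 101 shorter ones, whose median was −0.10.

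CAMK2G, a calmodulin kinase II subunit that acts on calcium handling and on MEF2 repressors, was the called gene among the 24 calcium and transcription effectors. It stood at 16.3, 13.1 and 17.3 TPM with scrambled ASO and at 5.49, 5.53 and 5.02 TPM with MYH7B ASO, and at 5.08 TPM in replicate 1. It fell by 1.38 on the log2 scale (SE 0.17, limma adjusted p = 0.0105), and kept its call in 5 of 6 fits that left out 1 library (adjusted p = 0.0616 without MYH7B ASO replicate 4). ARHGEF12, a guanine nucleotide exchange factor that binds Gq and G12 family subunits, read 19.2, 19.6 and 16.0 TPM against 10.2, 9.40 and 8.07 TPM and fell by 0.92 (SE 0.17, adjusted p = 0.0389). HOMER1, a scaffold that links IP3 receptors to receptors at the membrane, read 19.1, 16.2 and 14.1 TPM against 8.23, 8.63 and 8.31 TPM and fell by 0.89 (SE 0.17, adjusted p = 0.0447).

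Among the readouts of hypertrophy, 3 of 11 tested genes fell, 9 were below 0 and the median was −0.80. Over all tested genes, 1.48% were called lower and 8767 of 15988 were below 0. The list was chosen with earlier results of these data known. FOS was higher without overlap (4.60 to 6.77 TPM, log2 fold change 0.47, limma adjusted p = 0.298), with replicate 1 at 4.94 TPM. EGR1 was at 0.31, and XIRP1 and ATF3 at −0.01 and −0.08. ANKRD1, a stretch-responsive nuclear and sarcomeric protein, stood at 97.3, 56.4 and 116.3 TPM with scrambled ASO and at 20.3, 32.4 and 25.1 TPM with MYH7B ASO, and fell by 1.72 (SE 0.28, limma adjusted p = 0.0251). ACTA1, the skeletal actin of the fetal gene programme, stood at 21.5, 34.4 and 29.01 TPM against 10.7, 10.4 and 9.87 TPM and fell by 1.35 (SE 0.19, adjusted p = 0.0156). RCAN1, a calcineurin target and regulator, stood at 31.9, 26.4 and 25.9 TPM against 15.4, 15.4 and 16.0 TPM and fell by 0.80 (SE 0.15, adjusted p = 0.0418). These calls sat close to the threshold: ACTA1 and ANKRD1 each kept theirs in 2 of 6 fits without 1 library, and RCAN1, ARHGEF12 and HOMER1 in none. With replicate 1 added, CAMK2G, ANKRD1 and ARHGEF12 were called (adjusted p = 0.00956, 0.0206 and 0.0398) and ACTA1, RCAN1 and HOMER1 were not (0.0621, 0.0588 and 0.102).

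The other 6 roles held no called gene among 59 tested, with 10 lower and 3 higher at an unadjusted p under 0.05 and 5 lower and 2 higher of 62 in the authors' deposited table. Over all genes these shares were 10.6% and 4.67%, and 5.69% and 3.02%. The most abundant genes of these roles are given as mean levels. LPAR1, a lysophosphatidic acid receptor, went from 21.2 to 15.3 TPM (log2 fold change −0.50), AGT, the angiotensin precursor, from 40.4 to 48.5 TPM (0.31), and ECE1, which matures endothelin, from 38.3 to 28.3 TPM (−0.43). GNA12 stood at 27.4 and 27.2 TPM (−0.03, and 0.04 after median-ratio rescaling), and the atypical kinases PRKCI and PRKCZ went from 31.6 to 22.2 TPM (−0.45) and from 24.8 to 25.5 TPM (0.04). Among brakes on the pathway, RGS5 went from 56.4 to 46.2 TPM (−0.29) and RGS3 from 40.3 to 37.7 TPM (−0.08). RGS5 is also one of the pericyte markers above. Of the lipid enzymes, CDIPT went from 55.5 to 66.6 TPM (0.27) and INPP5A from 48.7 to 42.7 TPM (−0.18). Adjusted p-values of these genes ran from 0.353 to 0.956 by limma.

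**Figure D4:**
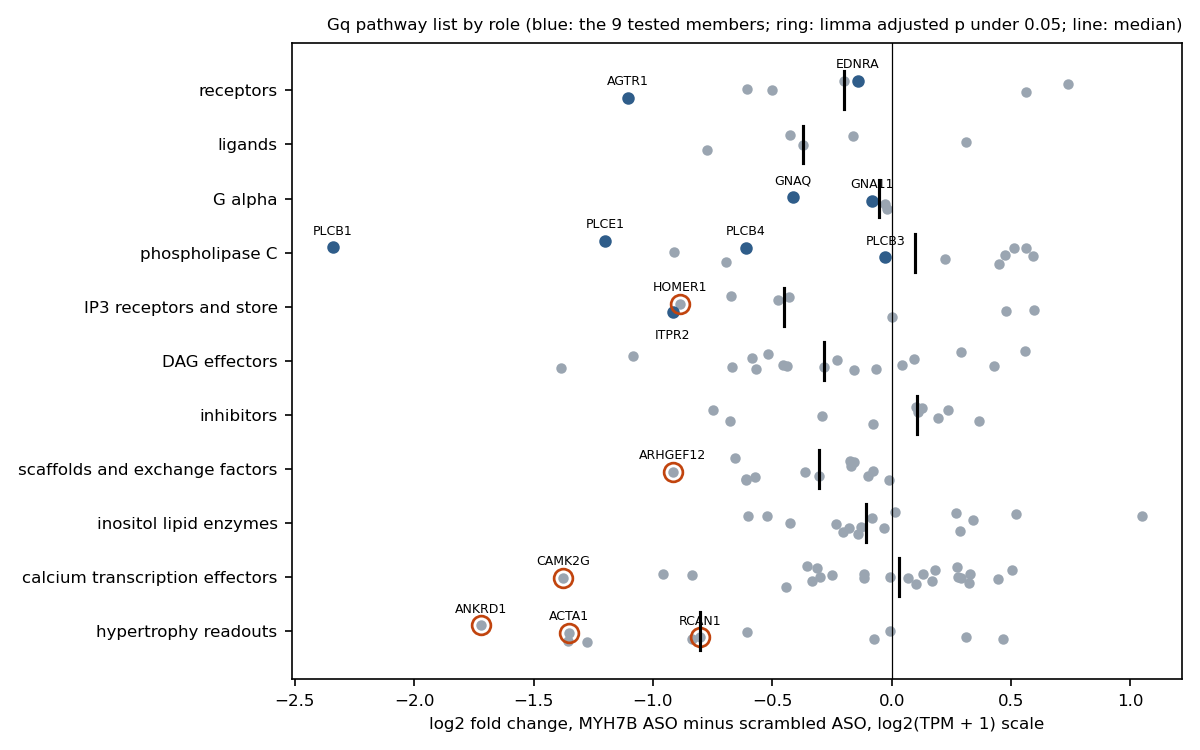
Log2 fold change, MYH7B ASO minus scrambled ASO, of the tested genes of the pathway list in 11 roles, with a bar at the median of each role. Blue points are the 9 tested members and orange rings the 6 genes other than PLCB1 with a limma adjusted p under 0.05; the lowest role median, −0.80, is that of the hypertrophy readouts.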

How the data were processed

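Gene expression was measured in 7 libraries, grouped by the labels as 3 scrambled ASO and 4 MYH7B ASO. The authors deposited TPM values per gene and library, each column summing to 1000000, which keeps no depth, so precision is given as the spread between libraries. The authors' deposited comparison table holds a mean signal (normalized counts averaged across libraries), a shrunken log2 fold change, its standard error and test score, and a p-value with its adjusted p-value. DESeq2 and GRCh38.p13 are named per the submitters' processing notes, without a version; aligner, quantifier and annotation are not given in the sources used here. No per-sample column was left unused.

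Testing covered the genes whose mean reached 1 TPM in the 6 libraries and was done with limma 3.58.1 (R 4.3.3; lmFit and eBayes with intensity trend) on log2(TPM + 1), a scale that understates changes of low genes, with Benjamini-Hochberg adjustment over all 15988 genes. "Called" means an adjusted p below 0.05. The GNA11 share and the summed GNAQ and GNA11 level were compared with exact permutation tests. The phospholipase C beta shares and sums were not tested. The script was tested on simulated data. Replicate 1 of the MYH7B ASO group was left out: its 58721 filled positions equal the number of genes in GENCODE 29, and assigning the sorted GENCODE identifiers raised its median correlation with the other 6 libraries, across genes, from 0.408 to 0.955 (0.416 when shifted by 1), so its levels rest on another annotation release. Python 3.11.15, pandas 2.3.3, numpy 2.4.6, matplotlib 3.10.9 and Biopython 1.88 were used. Positions were read from GENCODE 29 (GRCh38), matched by identifier for 99.15% of tested genes.

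Named genes were the 10 members, called genes of the pathway list (at most 20), the 2 most abundant genes of each role without a call, MYH7B, and the 5 genes most like PLCB1. ITPR1, ITPR3, PLCB2, PLCE1-AS1, the neighbours of PLCB1, PRKD1, ITPKB, NPPB, MYH7 and PRKCA were added outside that rule. So were CAMK2A, CAMK2B, CAMK2D, FOS, EGR1, XIRP1 and ATF3. The members, gene lists and rules were chosen with earlier results of these data known. The alternatives tried were other pseudocounts (0.1 and 5), no filter or a minimum mean of 5 TPM, median-ratio rescaling, removal of mitochondrially encoded genes, limma without trend or with sample weights, replicate 1 added, replicate blocks, and leaving out each library.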

Additional observations from a re-analysis of the deposited data

Results flagged for a closer look

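With all 4 MYH7B ASO libraries in view, 36 measures (the members, the named pathway genes and both shares) were screened for 1 library standing away from its group, by the gap to its nearest neighbour over the range, against Dixon's 95% critical value. Chance alone sets apart about 1 in 20 groups, and 5 measures stood out. GNAQ in replicate 1 was at 8.40 TPM against 6.15 to 6.42 in the other 3. ACTA1 in replicate 1 was at 3.50 TPM against 9.87 to 10.7. RCAN1 in replicate 1 was at 11.2 TPM against 15.4 to 16.0. HOMER1 in replicate 1 was at 3.86 TPM against 8.23 to 8.63. PLCB2 in replicate 2 was at 23.7 TPM against 11.3 to 12.8. Of these, 4 lie in replicate 1, whose column had to be reordered.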

How the results depend on the processing

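The number of genes called was 265, and 215 to 310 under other pseudocounts, a minimum mean of 5 TPM, median-ratio rescaling, removal of mitochondrially encoded genes and sample weights. It was 40 with no filter on low values, 150 without intensity trend, 170 with replicate 1 added, and 53 to 149 when 1 library was left out. Of the pathway list without the members, 6 genes were called, 0 with no filter, 3 with mitochondrially encoded genes removed, 2 without intensity trend, 3 with replicate 1 added and 0 to 4 with 1 library left out. PLCB1, selected on its difference, is left out of these totals. Of the long genes, 70 were called lower, 15 with no filter and 21 to 39 with 1 library left out. Of the members other than PLCB1, 0 were called, except 1 (PLCE1) at a minimum mean of 5 TPM. The PLCB1 difference of −2.34 was −2.78 with a pseudocount of 0.1 and −1.45 with 5, and that of ITPR2, −0.92, was −1.40 and −0.37. The direction turned for genes near 0. With 1 library left out, PLCB3 ranged from −0.25 to 0.25, GNA11 from −0.19 to 0.047, AGT from −0.018 to 0.52, GNA12 from −0.16 to 0.071, PRKCZ from −0.029 to 0.15, RGS3 from −0.27 to 0.057 and TMX4 from −0.15 to 0.27. After median-ratio rescaling PLCB3 was at 0.028 and GNA12 at 0.038. With sample weights PLCB3 was at 0.085. With replicate 1 added PLCB3 was at 0.23, GNA11 at 0.10 and RGS5 at 0.086. The causes were not tested.

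No label says that a replicate number marks a shared culture. Titles pair numbers 2 and 3 of the 6 libraries, with correlations of deviations of 0.08 and 0.11, and descriptions pair 3 and 4, with −0.07 and −0.04, so the numbers were taken as names. With the replicate block by title, by description, or by title with replicate 1 added, 0 genes were called by limma, 0 of the pathway list, 0 long genes and 0 other members, and 1718, 1096 and 1773 genes had an unadjusted p under 0.05. Under those 3 blocks PLCB3 was at 0.32, 0.27 and 0.36. By title, and by title with replicate 1 added, GNA11 was at 0.13 and 0.25 and GNA12 at 0.087 and 0.0090. Under the block by title with replicate 1 added, RGS5 was at 0.22 and RGS3 at 0.090. AGT was at −0.17 under the block by description, and TMX4 at −0.062 and −0.098 under the blocks by title and by description. With the block by title the PLCB1 share difference was −27.5 percentage points and that of GNA11 10.9.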

Other observations

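Outside the members, 2 genes of the pathway list with larger differences than most, which did not pass the limma threshold, are described here. They were singled out after their values were seen, and they are not the only such genes. The hypertrophy readouts NPPB and MYH7 and the kinase PRKCA had log2 fold changes of −1.36, −1.27 and −1.08. Their limma adjusted p-values were 0.0882, 0.148 and 0.168. The authors' deposited table gives adjusted p-values of 0.00754, 0.0730 and 8.7e-08 for them. ITPKB, a kinase that phosphorylates IP3 and so ends its action on the calcium channels, was at 4.16, 3.80 and 3.77 TPM with scrambled ASO and at 11.6, 9.20 and 7.12 TPM with MYH7B ASO, with 8.61 TPM in replicate 1. Each of the 4 MYH7B ASO libraries lay above all scrambled libraries, and the log2 fold change was 1.047 (SE 0.21, limma adjusted p = 0.0553). ITPKB passed in 1 of 18 alternatives, median-ratio rescaling. It passed in 0 of 6 fits that left out 1 library (limma adjusted p from 0.0984 to 0.189). The authors' deposited table gives 1.13 with an adjusted p of 8.8e-09. PRKD1, the protein kinase D that acts on MEF2 repressors downstream of diacylglycerol, was at 8.79, 13.6 and 7.65 TPM with scrambled ASO and at 2.03, 3.79 and 3.78 TPM with MYH7B ASO, with 4.56 TPM in replicate 1. Its log2 fold change was −1.38 (SE 0.28, limma adjusted p = 0.0542), and at 615.4 kb it belongs to the long genes. PRKD1 passed in 1 of 18 alternatives, a minimum mean of 5 TPM. It passed in 0 of 6 fits that left out 1 library (limma adjusted p from 0.0792 to 0.149). The authors' deposited table gives −1.07 with an adjusted p of 2.5e-04.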
